A study of Mus musculus with 12 samples.

Results

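The opioid system of the mouse brain was followed in cortex and cerebellum through 7 genes. They encode 4 opioid receptors (Oprk1, Oprd1, Oprm1 and Oprl1) and 3 precursors of opioid peptides (Pdyn, Penk and Pnoc). The genes were taken by symbol from a table of 15759 entries, and all 7 were present and were among the 15369 genes tested, which had a mean of at least 10 normalized counts over the libraries. The list was drawn up with the counts of these genes in the 4 groups already known, so their levels and differences are a description, given with errors but without p-values for single genes.

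RNA came from SCA1 KI mice (Atxn1 154Q/2Q) and wild-type (WT) littermates on the C57BL/6J strain at 12 weeks of age, with 3 libraries in each of the groups WT cortex, SCA1 KI cortex, WT cerebellum and SCA1 KI cerebellum. SCA1 KI mice model spinocerebellar ataxia type 1: 1 allele of Atxn1 encodes a tract of 154 glutamines and the other carries 2, and the expanded allele sits in the gene's own locus, so it is not limited to a cell type. Both regions were dissected whole and no cells were sorted. The labels state that males were sequenced, whereas the methods of the study combine males and females. Cortex libraries carry the marks A to F and cerebellum libraries the marks 1 to 6 in the deposited table, and these marks are used below. The cerebellar libraries belong to an earlier data set of the same laboratory, so region and sequencing run cannot be told apart.

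Opioid receptors are receptors of the cell surface that couple to inhibitory Gi/o proteins, which lower adenylyl cyclase activity, open inwardly rectifying potassium channels and close presynaptic calcium channels. Their ligands are cut from larger precursors in dense core vesicles. Pdyn gives the dynorphins, which prefer the kappa receptor (Oprk1), Penk gives the enkephalins, which act on the delta (Oprd1) and mu (Oprm1) receptors, and Pnoc gives nociceptin, the ligand of the related receptor encoded by Oprl1. In the forebrain, Penk is best known from striatal neurons that express the dopamine receptor Drd2, and GABAergic interneurons of the cortex make opioid peptides as well.

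Each library held between 29520855 and 51311309 reads on genes. Markers of cerebellar granule cells summed to 132454 to 188737 normalized counts in the cerebellum and 3216 to 4155 in the cortex, and markers of cortical excitatory neurons to 59392 to 90132 in the cortex and 14877 to 22728 in the cerebellum, as the region labels state. The genotype labels could not be checked on Atxn1, because reads on the gene do not separate the 2 alleles, and its LFC (log2 fold change, SCA1 KI minus WT) was −0.31 ± 0.13 (SE) in the cortex and 0.079 ± 0.13 in the cerebellum.

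A gene was called a DEG (differentially expressed gene) when its adjusted p from limma was below 0.05 and its LFC, on log2(normalized count + 1), was beyond 0.25 in either direction. Each group has 3 libraries, and the SE pools the spread of all 4 groups. In bulk tissue, fewer cells of a type and less RNA per cell cannot be told apart.

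Pdyn and Oprd1 are a precursor and a receptor whose cortical libraries did not overlap between the genotypes, and the 250 bases before their start sites are shown for that reason (RefSeq, GRCm38.p6, minus strand, 5′ to 3′, with CpG dinucleotides in capitals). Pdyn is at chr2:129699939-129700188 and Oprd1 at chr4:132144487-132144736.
Pdyn: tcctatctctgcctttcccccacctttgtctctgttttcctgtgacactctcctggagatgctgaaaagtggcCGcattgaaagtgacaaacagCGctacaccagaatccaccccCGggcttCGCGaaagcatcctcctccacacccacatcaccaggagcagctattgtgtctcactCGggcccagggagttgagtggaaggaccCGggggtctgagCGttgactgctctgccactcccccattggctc
Oprd1: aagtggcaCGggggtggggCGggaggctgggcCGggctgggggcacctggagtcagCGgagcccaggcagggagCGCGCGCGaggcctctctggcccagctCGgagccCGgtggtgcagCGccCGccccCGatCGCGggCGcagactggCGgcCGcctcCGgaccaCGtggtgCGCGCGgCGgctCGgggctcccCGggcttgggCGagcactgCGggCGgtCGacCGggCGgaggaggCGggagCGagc
RefSeq lists 2 start sites for Pdyn, and the sequence shown is before the more upstream of them, which lies beyond the gene end that GENCODE gives below. The Pdyn sequence shown is 57.2% GC with 8 CpG dinucleotides and lies near the middle of the 32851 RefSeq windows of this length, of which 57.0% have fewer. The window before the other start, chr2:129698659-129698908, is 44.0% GC with 4 CpG dinucleotides, and 37.8% of windows have fewer. The Oprd1 sequence is 80.0% GC with 34 CpG dinucleotides, more than 96.5% of windows. RefSeq windows were found for 4 of the 7 genes, 9 windows in all, and those of Oprl1 and Oprm1 held between 0 and 4 CpG dinucleotides. Motifs were searched on both strands. The palindromic cAMP response element TGACGTCA is in 1.55% of all windows, the shorter TGACG contained in it in 17.8%, the AP-1 site TGACTCA in 4.46% and at least 1 of the octamers of Capicua, the partner of ataxin-1 (TGAATGAA, TGAATGGA, TCAATGAA and TCAATGGA), in 3.19%. None of these letters was in any of the 9 windows, which says nothing of the factors beyond these windows.

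Over the 7 genes, levels in SCA1 KI libraries were mostly lower than in WT libraries. In the cortex 2 of 7 were called, Penk and Oprd1, both lower, while 15.6% of all tested genes were called and 10.8% were called lower. Libraries of the genotypes did not overlap for 3 genes in the cortex, Pdyn, Oprd1 and Pnoc, against 30.9% of all tested genes. In the cerebellum 4 of 7 were called, Pdyn, Oprk1, Pnoc and Oprl1, all lower, while 5.36% of all tested genes were called and 4.44% were called lower. The same 4 genes did not overlap between the genotypes in the cerebellum, against 31.8% of all tested genes. The median LFC was −1.09 in the cortex and −0.76 in the cerebellum for the 7 genes, and −0.0028 and −0.0049 over all genes tested. Because the genes were listed with these values known, the counts are not evidence about the opioid system as a group. Fitted on each region alone, the cortex also gave 2 calls, but Pdyn and Oprd1, and the cerebellum gave 1, Pdyn.

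**Figure D1:**
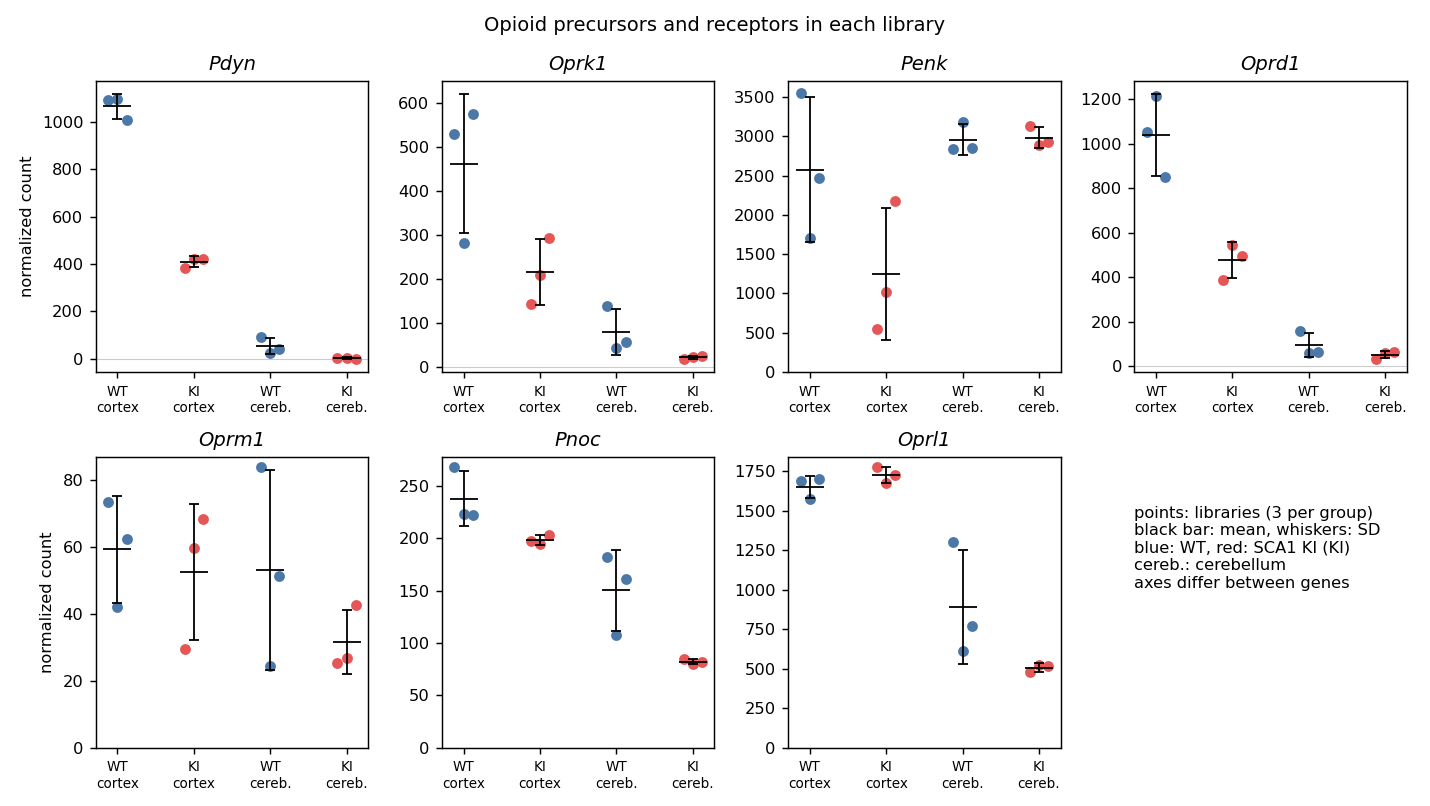
Normalized counts (y axis, linear, from 0, with an own scale for each gene) of the 7 opioid genes in the 12 libraries, grouped by region and genotype. Points are libraries (3 per group), black bars are means and whiskers are SDs. Pdyn lies at 1005 to 1095 in WT cortex and 382 to 423 in SCA1 KI cortex, and Penk in the cerebellum lies at 2833 to 3180 in both genotypes together.

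Pdyn (chromosome 2, 129686565 to 129699844, minus strand, GRCm38) was lower in SCA1 KI than in WT in both regions, by 2.60-fold in the cortex and 16.3-fold in the cerebellum as a ratio of means. In the cortex it had 1093, 1095 and 1005 normalized counts in WT libraries B, C and D and 382, 423 and 421 in SCA1 KI libraries A, E and F. Both groups were tight and far apart, with means of 1065 ± 51.3 (SD, n = 3) and 409 ± 22.9. The cortical LFC was −1.38 ± 0.58 (SE, 95% interval −2.63 to −0.12), which was not called, because the pooled SE includes the cerebellum, where Pdyn counts are low and scattered. With the cortex fitted alone the SE was 0.094 at the same LFC and the gene was called, as it also was by edgeR, by DESeq2, with a pseudocount of 5 and without SCA1 KI cerebellum library 5.

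In the cerebellum Pdyn had 93.1, 25.7 and 41.9 normalized counts in WT libraries 2, 4 and 6, which are 102, 21 and 36 reads. SCA1 KI libraries 1, 3 and 5 had 5.06, 4.81 and 0, which are 6, 7 and 0 reads. The groups did not overlap, and the LFC was −3.86 ± 0.58 (95% interval −5.12 to −2.61). This call was kept under every alternative run, with values from −4.30 without SCA1 KI library 1 to −2.72 with a pseudocount of 5. The SCA1 KI mean of 3.29 ± 2.85 normalized counts is near the value of 3 reads in these libraries (2.06 to 2.90), so the size of the fold rests on few reads.

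Oprk1 (chromosome 1, 5588466 to 5606131, plus strand), the kappa receptor at which dynorphins act, was likewise lower in SCA1 KI in both regions. In the cortex it had 530, 282 and 574 normalized counts in WT libraries B, C and D and 144, 209 and 294 in SCA1 KI libraries A, E and F. WT library C lay below SCA1 KI library F, so the groups overlapped, and the LFC of −1.09 ± 0.39 (95% interval −1.94 to −0.24) was not called. DESeq2 called it, and so did limma without WT cortex library C, at −1.41, and without WT cerebellum library 2.

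In the cerebellum Oprk1 had 140, 44.0 and 58.2 normalized counts in WT libraries 2, 4 and 6 and 19.4, 24.03 and 26.1 in SCA1 KI libraries 1, 3 and 5. The 3 SCA1 KI libraries lay close together and below all WT libraries, while WT library 2 stood well above the other WT libraries. The LFC was −1.59 ± 0.39 (95% interval −2.44 to −0.73) and was called. The call was lost without library 1 (−1.47), 2 (−1.10), 3 (−1.62), 5 (−1.67) or 6 (−1.73), and with the cerebellum fitted alone.

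Penk (chromosome 4, 4133531 to 4138819, minus strand), the enkephalin precursor, was lower in SCA1 KI cortex, while its means in the cerebellum were within the spread of the libraries. In the cortex it had 3545, 1710 and 2472 normalized counts in WT libraries B, C and D and 546, 1016 and 2180 in SCA1 KI libraries A, E and F. Libraries of each genotype differed among themselves by over 2-fold and the groups overlapped, with SCA1 KI library F above WT library C. The LFC of −1.21 ± 0.37 (95% interval −2.01 to −0.40) was called with the pooled SE, but with the cortex fitted alone the SE was 0.44 and the call was lost, as it was with edgeR and DESeq2. It was also lost without SCA1 KI library A (−0.73), WT library B (−0.95), WT library D (−1.21) or SCA1 KI library E (−1.18), and without cerebellar library 1, 3, 4, 5 or 6, which leaves the LFC at −1.21.

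In the cerebellum Penk had 2833, 3180 and 2849 normalized counts in WT libraries 2, 4 and 6 and 3135, 2888 and 2925 in SCA1 KI libraries 1, 3 and 5. These 6 values span a narrow range, with means of 2954 ± 196 and 2983 ± 133. The LFC was 0.015 with an SE of 0.058 for the cerebellum alone, and the 95% interval with the pooled SE (0.37) ran from −0.79 to 0.82. Exons of Penk overlap those of A830012C17Rik, and the strand setting of the counting is not given in the sources used here, so reads of the 2 genes may not be separated.

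Oprd1 (chromosome 4, 132110726 to 132144486, minus strand), the delta receptor for enkephalins, was lower in SCA1 KI cortex. It had 1053, 1213 and 848 normalized counts in WT libraries B, C and D and 387, 544 and 496 in SCA1 KI libraries A, E and F. Every SCA1 KI library lay below every WT library, and the LFC was −1.12 ± 0.33 (95% interval −1.84 to −0.41), which was called. With the cortex alone the SE was 0.16. The call was lost without SCA1 KI library A (−0.98), WT library B (−1.11), WT library C (−1.003) or SCA1 KI library F (−1.16).

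In the cerebellum Oprd1 had 160, 61.1 and 66.4 normalized counts in WT libraries 2, 4 and 6 and 33.7, 58.4 and 65.8 in SCA1 KI libraries 1, 3 and 5. WT library 2 and SCA1 KI library 1 lay apart, and the other 4 libraries were close together and overlapped. The LFC of −0.76 ± 0.33 (95% interval −1.48 to −0.048) was not called.

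Oprm1 (chromosome 10, 6758506 to 7038198, plus strand), the mu receptor, which also binds enkephalins, was the least abundant of the receptors per kilobase in WT tissue. In the cortex it had 73.7, 42.1 and 62.6 normalized counts in WT libraries B, C and D and 29.6, 59.7 and 68.5 in SCA1 KI libraries A, E and F, which overlapped. The cerebellum gave 84.0, 24.4 and 51.3 in WT libraries 2, 4 and 6 and 25.3, 26.8 and 42.6 in SCA1 KI libraries 1, 3 and 5, again overlapping. Neither LFC was called, at −0.22 ± 0.42 in the cortex (95% interval −1.14 to 0.70) and −0.61 ± 0.42 in the cerebellum (95% interval −1.53 to 0.31). These intervals leave room for a difference of 2-fold in the lower direction in both regions. Exons of Oprm1 overlap those of Ipcef1.

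Pnoc (chromosome 14, 65400673 to 65425472, minus strand), the precursor of nociceptin, was lower in SCA1 KI cerebellum and little different in the cortex. In the cerebellum it had 183, 107 and 161 normalized counts in WT libraries 2, 4 and 6 and 85.1, 79.6 and 82.3 in SCA1 KI libraries 1, 3 and 5. The SCA1 KI values were nearly equal and all below WT, and the LFC of −0.83 ± 0.17 (95% interval −1.19 to −0.46) was called. The call was lost without SCA1 KI library 3 (−0.80) or WT library 6 (−0.76) and with the cerebellum fitted alone.

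In the cortex Pnoc had 269, 224 and 222 normalized counts in WT libraries B, C and D and 197, 194 and 204 in SCA1 KI libraries A, E and F. The groups did not overlap, but the gap between WT library D and SCA1 KI library F was small beside the spread of the WT libraries. The LFC of −0.26 ± 0.17 (95% interval −0.62 to 0.11) was not called.

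Oprl1 (chromosome 2, 181715016 to 181720985, plus strand), the nociceptin receptor, overlapped between the genotypes in the cortex, with 1685, 1572 and 1699 normalized counts in WT libraries B, C and D and 1775, 1674 and 1727 in SCA1 KI libraries A, E and F. The LFC there was 0.063 ± 0.19, with a 95% interval of −0.35 to 0.48. In the cerebellum it had 1298, 611 and 768 in WT libraries 2, 4 and 6 and 478, 525 and 520 in SCA1 KI libraries 1, 3 and 5. All SCA1 KI values were below WT, with WT library 2 far above the other WT libraries, and the LFC of −0.74 ± 0.19 (95% interval −1.16 to −0.33) was called. It was −0.43 and still called without WT library 2. The call was lost without library 1 (−0.70), 3 (−0.76), 5 (−0.76) or 6 (−0.81), without cortex library B, C, D, E or F at the same LFC of −0.74, and with the cerebellum fitted alone.

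**Figure D2:**
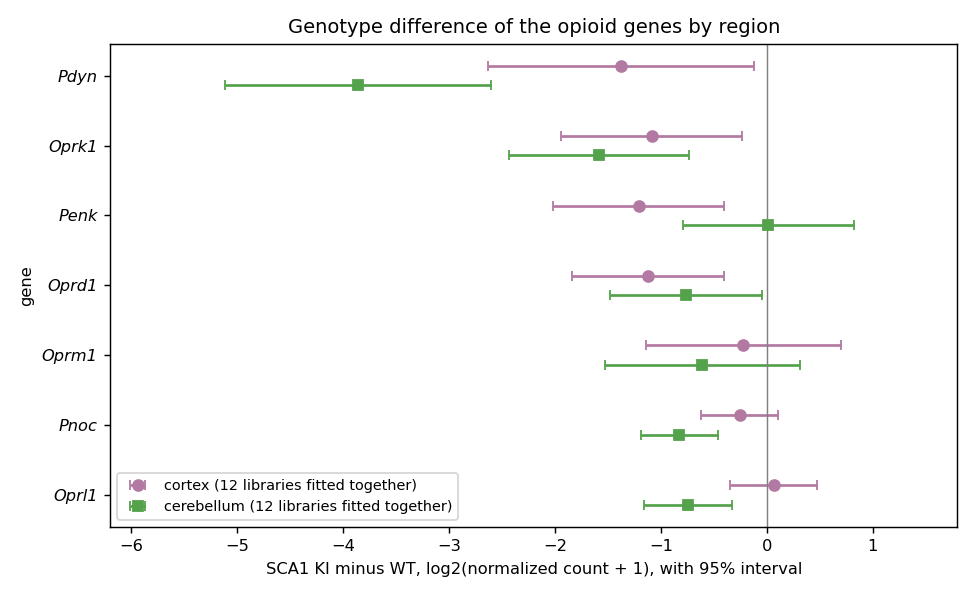
LFC (x axis, SCA1 KI minus WT on log2(normalized count + 1)) of the 7 opioid genes (y axis) in the cortex (circles) and the cerebellum (squares). Symbols are the fitted differences of the 12 libraries and lines are 95% intervals from the pooled SE. Pdyn in the cerebellum, at −3.86, lies farthest from 0, and Penk in the cerebellum and Oprl1 in the cortex lie nearest to it, at 0.015 and 0.063.

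The effect of genotype was then compared between the regions, which share no libraries but are fitted with 1 estimate of the spread. For Pdyn the cortical LFC minus the cerebellar LFC was 2.48 ± 0.82, and for Oprl1 it was 0.80 ± 0.27 and for Pnoc 0.57 ± 0.24, all in the direction of a lower level in SCA1 KI cerebellum. For Penk it was −1.22 ± 0.53, in the direction of a lower level in SCA1 KI cortex. Oprk1 gave 0.50 ± 0.56, Oprm1 0.39 ± 0.60 and Oprd1 −0.36 ± 0.47, each smaller than its SE. Limma called 0 of the 7 (8.15% of all tested genes were called), and thus did not show a difference between the regions in the genotype effect for any of them. Beside this count of 0, 4 of 7 had an unadjusted p under 0.05, as had 21.4% of all tested genes, and nothing is read from this because the genes were listed with these values known. EdgeR called 1, Pdyn, and 1294 of all 15369 genes tested. DESeq2 called 2, Pdyn and Oprl1, and 1755 of the 15068 genes to which it gave an adjusted p.

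In WT mice 5 of the 7 genes were called higher in the cortex than in the cerebellum, Pdyn, Oprk1, Oprd1, Pnoc and Oprl1, and 0 were called lower. Of all tested genes 61.7% were called between the WT regions, 31.0% higher and 30.7% lower in the cortex, and libraries did not overlap for the same 5 opioid genes and for 69.9% of all tested genes. The WT means differed 19.9-fold for Pdyn (log2 difference 4.48 ± 0.58), 10.8-fold for Oprd1 (3.55 ± 0.33) and 5.73-fold for Oprk1 (2.62 ± 0.39), and less for Oprl1 (1.85-fold) and Pnoc (1.58-fold). Penk (−0.26 ± 0.37) and Oprm1 (0.29 ± 0.42) overlapped between the regions. The WT libraries of this comparison are the controls of the genotype comparisons as well.

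Per kilobase of exon, the order of the genes was similar in the 4 groups. Penk led in every group, from 763 ± 515 normalized counts per kilobase in SCA1 KI cortex to 1825 ± 81.6 in SCA1 KI cerebellum, and Oprl1 was second in every group, from 135 ± 6.88 in SCA1 KI cerebellum to 460 ± 13.5 in SCA1 KI cortex. Pdyn ranked 3 in the cortex, at 369 ± 17.8 in WT and 142 ± 7.92 in SCA1 KI, and Pnoc ranked 3 in the cerebellum, at 69.7 ± 17.9 in WT and 38.2 ± 1.26 in SCA1 KI. Oprd1 ranked 4 in every group. Oprm1 was lowest in 3 groups, at 3.93 to 7.398 per kilobase over all groups, and Pdyn was lowest in SCA1 KI cerebellum at 1.14 ± 0.99.

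Ordered by group, Pdyn had 4 levels that did not overlap between neighbours, from high to low WT cortex, SCA1 KI cortex, WT cerebellum and SCA1 KI cerebellum, and Pnoc followed the same order without overlap. Oprk1 had that order too, but its cortical groups overlapped, and Oprd1 had it with overlap of the cerebellar groups. Oprl1 had overlapping cortical groups above WT cerebellum, which lay above SCA1 KI cerebellum. For Penk and Oprm1 all neighbouring groups overlapped.

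Markers of other brain regions moved with the cerebellar differences. In WT cerebellum the libraries ran in the order 2, 6, 4 from high to low for Pdyn, Oprk1, Oprd1, Oprm1, Pnoc and Oprl1, whereas Penk ran in the opposite order. The sums of the granule cell list ran in the order of Penk, with 188179, 179889 and 132454 in WT libraries 4, 6 and 2. Those of the Purkinje cell list did too, with 391747, 374072 and 319630. The share of all tested genes with either order was not counted. The order 2, 6, 4 was also that of Tcf7l2, a transcription factor of thalamic neurons, with 2404, 2051 and 1480 normalized counts in WT libraries 2, 6 and 4 and 210 to 249 in SCA1 KI. Pou4f1, a factor of the habenula, had the same order with 139, 83.9 and 46.4 in WT and 2.53 to 10.7 in SCA1 KI. Of 9 measured genes of the thalamus and habenula list 6 fell in SCA1 KI cerebellum and 0 rose, and the list summed to 6267 to 7484 in WT and 3737 to 3840 in SCA1 KI. Of all tested genes 4.44% fell there and 0.917% rose. Of 7 tested midbrain genes 3 fell (Tal1, Gata3 and Shox2), and the 8 measured summed to 862 to 1334 in WT and 354 to 409 in SCA1 KI. No gene of these 2 lists was at 0 in all 3 libraries of a cerebellar group.

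Some genes of the forebrain lists fell in SCA1 KI cerebellum as well, and others rose or were not called. Beside the counts below, 4.44% of all tested genes fell there and 0.917% rose. Counts near these shares are not a result about a list. Sst and Vip, neuropeptides of forebrain interneurons, had 368 to 864 and 81.5 to 130 normalized counts in WT cerebellum and 41.2 to 72.6 and 0 to 2.53 in SCA1 KI cerebellum, and with Npy they made 3 of 11 interneuron genes that fell there. The interneuron list summed to 66685 to 68968 in WT and 61458 to 62579 in SCA1 KI. Most of this was Gad1, Pvalb, Reln and Gad2, with WT means of 27180, 15347, 12399 and 10798, and none of them was called there. Of 10 striatal genes 2 fell, Six3 and Tac1, with list sums of 6717 to 7375 and 4732 to 5280. Most of these sums was Ppp1r1b, at 5844 ± 723 in WT and 4424 ± 301 in SCA1 KI, which was not called. The list for Golgi cells, other cerebellar interneurons and unipolar brush cells had 0 of 8 genes called in the cerebellum. Its sums were 16467 to 17639 in WT and 15995 to 16169 in SCA1 KI. The lists for Purkinje and granule cells had 0 of 7 genes called each. Purkinje sums were 319630 to 391747 in WT and 293688 to 327120 in SCA1 KI. Pcp2 had 10135 ± 671 in WT and 7753 ± 297 in SCA1 KI. Calb1, Ppp1r17 and Gad1 were also lower in SCA1 KI without overlap. The pooled SE of Pcp2 (0.86) includes the cortex, where its means were 9.88 and 0.64. A missing call here therefore does not show equal levels. In the remaining lists, 1 rose (Synpr) and 3 fell of 12 genes of claustrum and deep layers, 1 rose (Tbr1) and 1 fell of 7 genes of cortical excitatory neurons, 1 fell of 7 hippocampal genes and 0 of 2 hypothalamic genes were called. The part of the tissue markers in the opioid differences of the cerebellum was not tested. Without WT library 2 Pdyn was at −3.37, Pnoc at −0.67 and Oprl1 at −0.43, all called, and Oprk1 at −1.10 and not called, but the WT libraries that remain still exceed SCA1 KI in Tcf7l2, so this does not bear on the part of the markers.

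**Figure D3:**
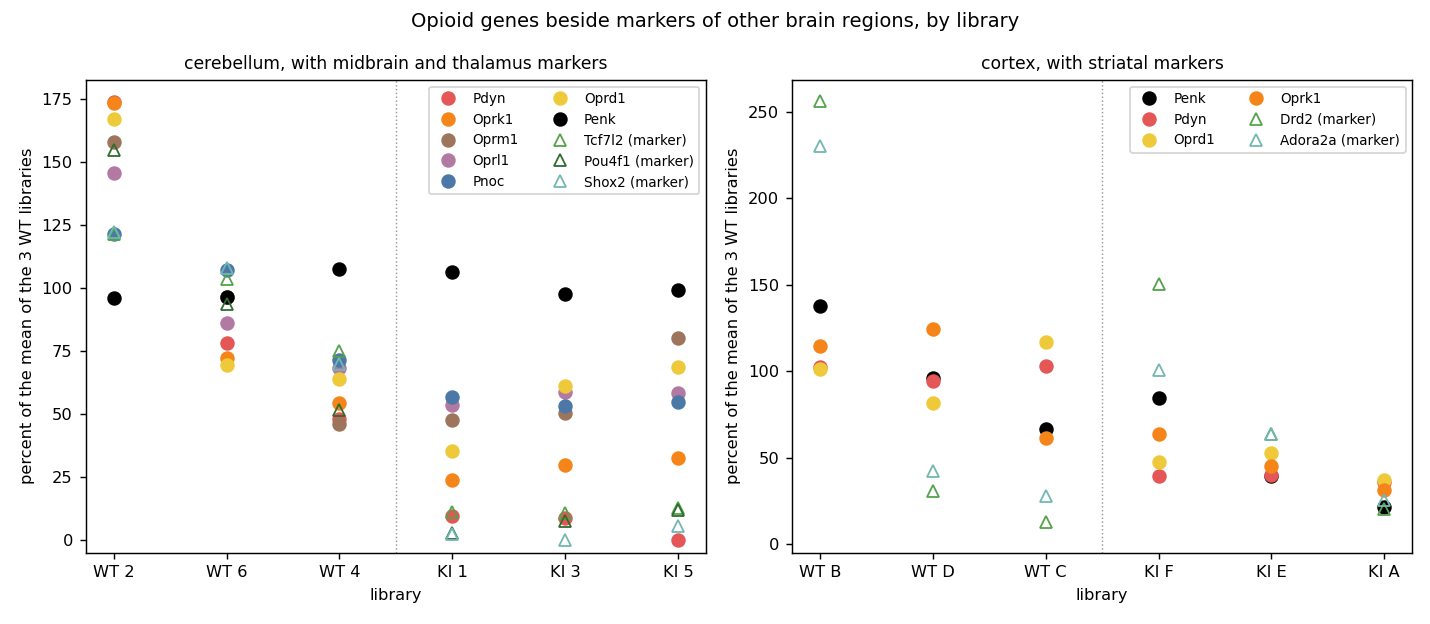
Level of opioid genes (filled circles) and markers of other brain regions (open triangles) in each library, as percent of the mean of the 3 WT libraries of the region (y axis, linear), with libraries along the x axis and a dotted line between the genotypes. Left, the cerebellum with thalamic and midbrain markers, where Penk stays at 95.9% to 108% in all 6 libraries and Pdyn, Oprk1, Pnoc, Oprl1 and the 3 markers lie below every WT library in SCA1 KI. Right, the cortex with the striatal markers Drd2 and Adora2a, libraries sorted by Penk within genotype, where Pdyn lies at 94.4% to 103% in WT and 35.9% to 39.7% in SCA1 KI.

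In the cortex, striatal markers varied with Penk among libraries of the same genotype. Penk ran in the order B, D, C in WT and F, E, A in SCA1 KI, and Drd2, Adora2a, Gpr6 and Ppp1r1b, all genes of striatal projection neurons, ran in the same orders. The share of all tested genes with these orders was not counted. Drd2 had 378, 45.5 and 18.8 normalized counts in WT libraries B, D and C and 222, 94.1 and 29.6 in SCA1 KI libraries F, E and A. Ppp1r1b had 6939, 4741 and 3432 in WT libraries B, D and C and 2759, 2312 and 1419 in SCA1 KI libraries F, E and A. Drd2 thus overlapped between the genotypes and Ppp1r1b did not. The striatum list summed to 7927 to 16159 in WT and 5550 to 9845 in SCA1 KI. Of its 10 genes 1 was called, Ppp1r1b, which fell, while 15.6% of all tested genes were called. The part of striatal tissue in the Penk difference was not tested.

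Genes of other lists differed with genotype in the cortex as well. Of all tested genes 4.82% rose and 10.8% fell there, and counts near these shares are not a result about a list. The interneuron list summed to 52384 to 55103 in WT and 30958 to 39247 in SCA1 KI, and 4 of its 11 genes fell (Gad1, Pvalb, Npy and Reln). Of the genes called, Gad1 overlapped between the genotypes. Lamp5, which marks another class of interneurons, had 10694 to 12540 normalized counts in WT and 2870 to 3401 in SCA1 KI cortex and was not called. Its pooled SE (0.69) includes the cerebellum, where WT libraries 2, 4 and 6 had 861, 53.7 and 133. Sst, Vip, Htr3a and Lhx6 were also lower in SCA1 KI cortex without overlap and were not called, so a missing call does not show equal levels. The list for claustrum and deep layers had 3 of 12 genes that fell (Ntng2, Synpr and Cplx3), with sums of 17935 to 21585 and 12928 to 17532, and the list of cortical excitatory neurons had 3 of 7 (Slc17a7, Rorb and Cux2), with sums of 88040 to 90132 and 59392 to 70082. For the hippocampal list 0 of 7 tested genes were called in the cortex, and for the hypothalamic list 0 of 2. Midbrain markers were higher in SCA1 KI cortex, with 2 of 7 that rose (Tal1 and Shox2) and sums of 385 to 519 in WT and 773 to 1598 in SCA1 KI, and Shox2 and Pax7 were at 0 in all WT cortex libraries. Pou4f1 rose there too, with 2.21 to 6.83 in WT and 217 to 372 in SCA1 KI. It was 1 of 2 genes of the thalamus and habenula list that rose in the cortex, where 2 others fell and the sums were 4284 to 4808 and 2984 to 3961. Of the cerebellar lists, 5 of 7 Purkinje cell genes fell in the cortex, Calb1, Car8, Rora, Itpr1 and Gad1, the last also an interneuron gene above. Their means in WT cortex ran from 938 to 35112, so they are not particular to Purkinje cells. Pcp2 and Ppp1r17, with 9.88 and 13.4 in WT cortex, were not called. In the cortex 0 of 7 granule cell genes were called. In the list for Golgi cells, other interneurons and unipolar brush cells 3 of 8 fell and 1 rose. The part of these cell types in the cortical differences of Pdyn and Oprd1 was not tested.

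The genes that make, break down and transduce opioid peptides were taken from 6 lists with 73 tested genes. In the cortex 2 rose and 13 fell, 20.5% of the 73 against 15.6% of all tested genes, with a median LFC of −0.11, where 4.82% of all tested genes rose and 10.8% fell. In the cerebellum 1 rose and 8 fell, 12.3% against 5.36%, with a median of −0.041, where 0.917% of all tested genes rose and 4.44% fell. The part of the tissue markers in the differences of these 73 genes was not tested in either region. The first list holds relatives of the opioid system, and 0 of its 5 genes were called in either region. Pomc, the precursor of beta-endorphin, had 26.3 ± 4.94 normalized counts in WT and 45.4 ± 20.8 in SCA1 KI cortex (LFC 0.69 ± 0.28, adjusted p = 0.114). Ogfr, the opioid growth factor receptor, was just under the LFC limit in the cortex at 0.25 ± 0.066 (adjusted p = 0.0219).

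Of 10 enzymes and helpers that cut precursors, 1 rose and 1 fell in the cortex and 2 fell in the cerebellum. Pcsk2, the prohormone convertase that releases enkephalins and dynorphins, fell in the cortex from 23341 ± 491 to 15507 ± 1135 (LFC −0.59 ± 0.064, adjusted p = 6.16e-05). It also fell in the cerebellum (−0.30 ± 0.064, adjusted p = 0.0154), where the call was lost without library 1 (−0.32), 2 (−0.25) or 3 (−0.27) and once each library's dependence on transcript length and GC was taken out (−0.24). Pam, which amidates peptide ends, fell in the cerebellum (−0.57 ± 0.14, adjusted p = 0.0314), and its call was lost without library 1 (−0.55), 3 (−0.56) or 5 (−0.61) and with the cerebellum alone. Qpct, which forms pyroglutamate ends, rose in the cortex (0.81 ± 0.22, adjusted p = 0.0228), and its call was lost without library A (0.82), C (0.78), D (0.82) or F (0.71).

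Among 10 proteins of dense core vesicles, 1 fell in the cortex, and 1 rose and 2 fell in the cerebellum. Cadps2, which primes vesicles for release, fell in the cortex from 6571 ± 179 to 4284 ± 358 normalized counts (LFC −0.62 ± 0.12, adjusted p = 0.00422) and rose in the cerebellum from 11962 ± 2635 to 18198 ± 75.8 (0.63 ± 0.12, adjusted p = 0.0102). Scg2, a granin, fell in the cerebellum from 8687 ± 861 to 5124 ± 113 (−0.76 ± 0.11, adjusted p = 0.00197). Vgf, a peptide precursor stored in these vesicles, fell in the cerebellum (−0.63 ± 0.15, adjusted p = 0.0317), and its call was lost without library 2 (−0.57), 3 (−0.65), 5 (−0.48) or 6 (−0.64) and with the length and GC correction (−0.47).

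Among 11 peptidases 1 was called, Ece2, an endothelin converting enzyme that also cuts opioid peptides. It rose in the cortex from 666 ± 36.5 to 1211 ± 159 normalized counts (LFC 0.85 ± 0.084, adjusted p = 3.26e-05) and was 2017 ± 60.4 and 1998 ± 34.1 in the cerebellum.

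Of 21 Gi/o proteins and effectors 5 fell in the cortex, and 0 were called in the cerebellum. Adcy1, a calcium-stimulated adenylyl cyclase, fell in the cortex from 54070 ± 1784 to 29295 ± 3427 normalized counts (LFC −0.89 ± 0.11, adjusted p = 0.000155). Kcnj6 and Kcnj9, subunits of the potassium channels that opioid receptors open, fell there as well, with LFCs of −0.66 ± 0.11 (adjusted p = 0.00097) and −0.62 ± 0.11 (adjusted p = 0.00255). Kcnj3 and the calcium channel subunit gene Cacna1a made up the 5.

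Of 16 receptor regulators 6 fell in the cortex and 4 in the cerebellum, 0 rose, and the other 10 and 12 were not called, with list medians of −0.30 and −0.080. RGS proteins speed the return of G proteins to the inactive state. In the cortex Rgs20 (LFC −0.80 ± 0.074, adjusted p = 2.1e-05), Rgs8 (−1.04 ± 0.13, adjusted p = 0.000225) and Rgs7 (−0.51 ± 0.068, adjusted p = 0.000268) had the smallest p. In the cerebellum Rgs14 fell from 16.04 ± 5.17 to 5.42 ± 1.93 normalized counts (−1.41 ± 0.23, adjusted p = 0.00289), a call that was lost with the cerebellum fitted alone. Adrbk2, which encodes a kinase of activated receptors, fell in the cerebellum (−0.36 ± 0.066, adjusted p = 0.00632). Rgs8 fell there as well (−0.62 ± 0.13, adjusted p = 0.0163), and its call was lost without library 1 (−0.62), 5 (−0.58) or 6 (−0.59).

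**Figure D4:**
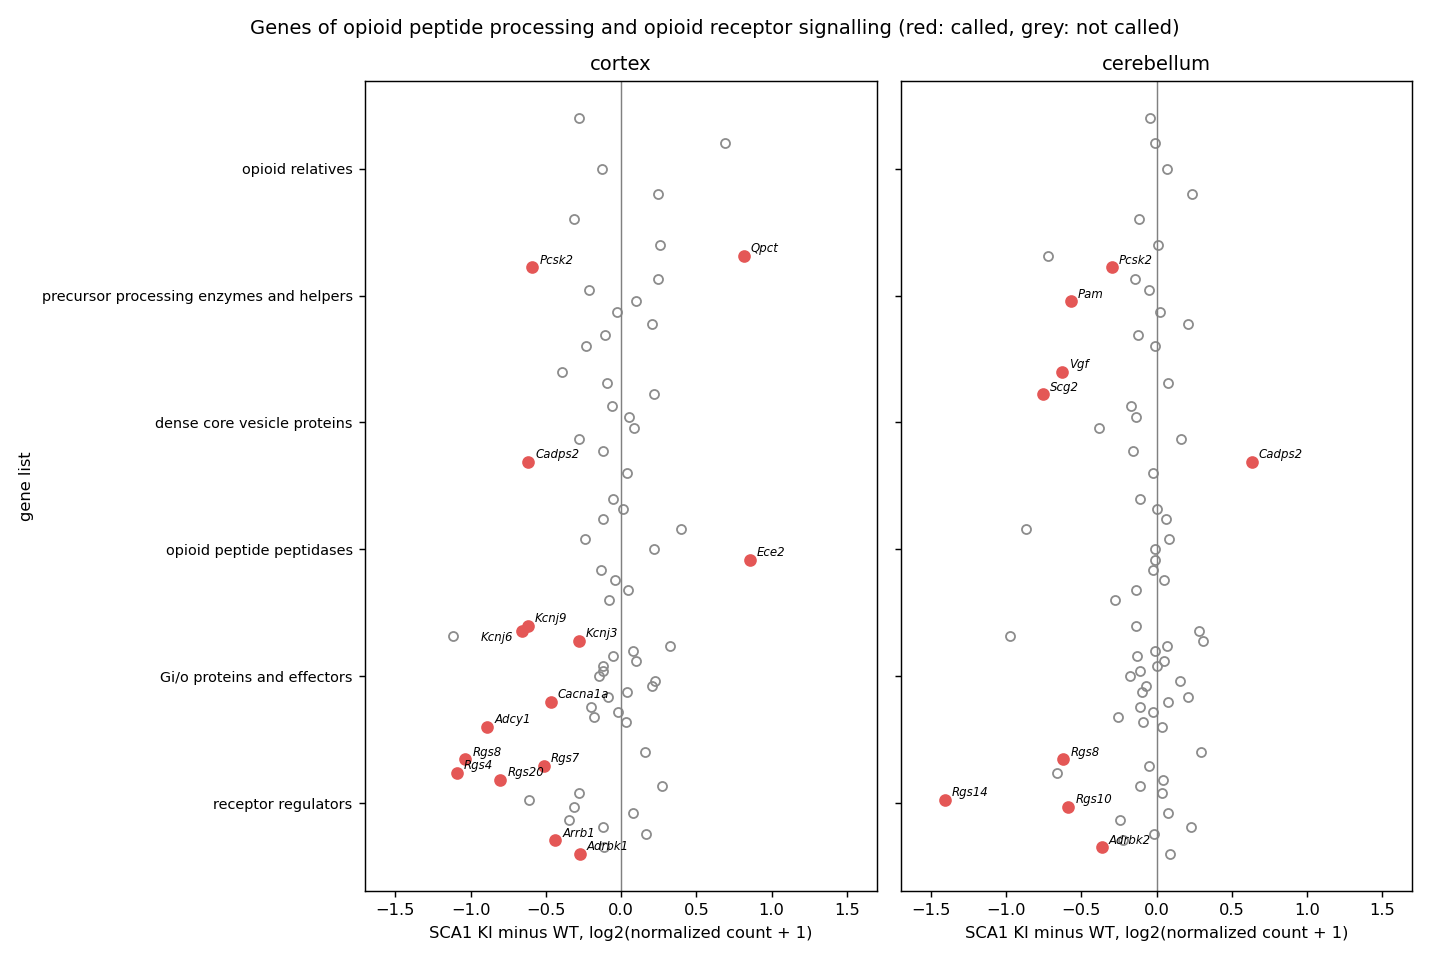
LFC (x axis, SCA1 KI minus WT on log2(normalized count + 1)) of the 73 genes of the 6 lists, by list (y axis), in cortex and cerebellum. Red points were called, grey points were not, and the vertical line marks 0. In the cortex 13 of the 15 called genes lie left of 0, with Ece2 and Qpct on the right, and in the cerebellum Cadps2 is the single called gene on the right.

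The genes most like each opioid gene were found by Pearson correlation over the 12 libraries after the mean of each region was removed. The points share libraries and genotypes, so r describes these libraries. Genotype means were not removed, so r also holds the genotype differences given above. It is not a measure of ligand and receptor likeness apart from them, and no r over all gene pairs is given for comparison. Pdyn was most like Gpr26 (r = 0.96), Rgs14 (0.96) and Zdhhc15 (0.95), and Oprk1 most like Smim1 (0.97), Fads2 (0.96) and Serpine2 (0.96). Penk was most like Slc38a3 (0.97), Necap2 (0.96) and Shh (0.95). The closest genes were Lipg (0.96), Cbln4 (0.96) and Sstr2 (0.94) for Oprd1, and C1ql2 (0.93), Evpl (0.93) and Cdh23 (0.91) for Oprm1. For Pnoc they were Tmbim1 (0.97), Kcnj2 (0.96) and Rtkn (0.96), and for Oprl1 A230077H06Rik (0.98), Gabra5 (0.98) and Resp18 (0.97). Among the opioid genes themselves, Pdyn and Pnoc were the most alike (0.88), followed by Pnoc with Oprl1 (0.86) and Oprk1 with Pnoc (0.86). The ligand and receptor pair Pdyn and Oprk1 gave 0.78, whereas Penk gave 0.44 with Oprd1, 0.43 with Oprm1 and −0.08 with Oprl1.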

How the data were processed

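Poly-adenylated RNA of 12 whole cortex and cerebellum samples was sequenced. The authors aligned paired reads to mm10 with STAR, counted them on genes with featureCounts, normalized them with DESeq2 and deposited a single table, in which the signal of a gene is its read count divided by the size factor of the library. All values (100%, tolerance 0.01 reads) came out as whole reads in every library, at a size factor estimated from the table.

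Columns were assigned to groups by the region and genotype in their names, which carry no replicate number of the labels. Main tests used limma 3.58.1 in R 4.3.3 (eBayes with trend) on log2(normalized count + 1) over 15369 genes, with 4 group means and Benjamini-Hochberg adjustment over all of them; this scale understates differences of low counts. The tested difference between regions needed only an adjusted p under 0.05. Alternatives on the recovered reads called 2472 (edgeR 4.0.16) and 2660 (DESeq2 1.42.0) genes in the cortex and 866 and 1150 in the cerebellum, against 2402 and 824 by limma. The fits were also run on simulated counts that had the same spread setting for every gene and cortical mean levels in all libraries. That run therefore does not bear on calls that depend on a spread that differs between the regions.

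The 7 genes, the 6 pathway lists and the 11 marker lists were chosen with earlier results of these data known. Named pathway genes are, per list and region, the 3 with the smallest p among those called without overlap between genotypes. Pomc, Ogfr, Kcnj3, Cacna1a, Lamp5, Drd2, Adora2a and Gpr6 were named after their values were seen. The same holds for Sst, Vip, Htr3a and Lhx6 in the cortex. Drd1, Gbx2, Hcrt, Pmch, Agrp and Gal were not analysed here. Positions and exon lengths are from GENCODE vM21 (GRCm38), and promoter windows from RefSeq. Intervals are 95% and come from the spread between libraries.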

Additional observations from a re-analysis of the deposited data

Results flagged for a closer look

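Limma's interaction test called 16.4% of the 73 pathway genes, 4 with a positive and 8 with a negative difference, against 8.15% of all genes. The 8 genes given below are those called among the pathway genes named above for their small p in a region. The others called were Mme (1.2637, adjusted p = 0.0466), Kcnj3 (−0.5937, adjusted p = 0.0104), Cacna1a (−0.5415, adjusted p = 0.0475) and Adrbk1 (−0.3656, adjusted p = 0.0239). The part of the tissue markers in these differences was not tested. The values are the cortical LFC minus the cerebellar LFC, with limma's adjusted p over all genes. They were lower in SCA1 KI cortex relative to the cerebellum for Cadps2 (−1.2505, adjusted p = 0.00124), which fell in the cortex and rose in the cerebellum. The same direction held for Kcnj6 (−0.9378, adjusted p = 0.00227), Adcy1 (−0.9286, adjusted p = 0.0029), Rgs20 (−0.8456, adjusted p = 0.000665) and Rgs7 (−0.4628, adjusted p = 0.0107). The difference had the opposite sign for Qpct (1.5374, adjusted p = 0.00914), Scg2 (0.9749, adjusted p = 0.00308) and Ece2 (0.8676, adjusted p = 0.00109). Dixon's test for an outlying library was not applied, since each group has 3 libraries, and values with each library left out are given with the results.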

How the results depend on the processing

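Fitted on each region alone, 1 opioid gene was called in the cerebellum in place of 4. For the difference between regions edgeR called 1 and DESeq2 2 in place of 0. Over all genes they called 1294 and 1755 there, against 1253 by limma. Leaving out each library in turn gave 0 to 3 called opioid genes in the cortex (0 without library A or B, and 3 without WT cerebellum library 2), 1 to 4 in the cerebellum (1 without library 3 or 6) and 0 to 2 for the difference between regions (2 without WT cerebellum library 4). It gave 5 to 13 called pathway genes in the cerebellum in place of 9 (5 without library 1, and 13 without library 4). The sign changed only for differences that were not called: Penk in the cerebellum (−0.0214 to 0.0692; −0.0141 without library 2 and −0.01 without library 6) and between WT regions (−0.5208 to 0.0051), and Oprm1 in the cortex (−0.452 to 0.1403), between WT regions (−0.1774 to 0.693) and for the difference between regions (−0.0202 to 0.8503). The same held for Adcy1 (−0.0956 to 0.1222) and Ece2 (−0.0287 to 0.0112) in the cerebellum, and Ece2 had 0.011 after centring on the region's median and 0.0877 with the length and GC correction. The cause of these shifts was not tested. Of the other settings, 241 of 255 values of the opioid genes kept direction and side of the threshold, 6 lost a call and 8 gained one; with a library left out, 293 of 336 kept both, 29 lost a call, 7 gained one and 7 changed sign. Low counts limit Pdyn in SCA1 KI cerebellum, with 0 to 7 reads per library. No paired analysis was possible because the library columns carry no replicate number of the labels.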
